A study of Mus musculus with 28 samples.

Results

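Glutathione transferases join glutathione to reactive molecules so that cells can clear them, and many of their genes, with those of glutathione synthesis and of the peroxide-clearing enzymes, respond to the transcription factor NRF2. NRF2, the product of Nfe2l2, is held at a low level by KEAP1 until oxidants or electrophiles reach the cell, and it then binds antioxidant response elements together with a small MAF protein. The liver carries the largest share of this detoxifying work in the body, and most cytosolic transferases of the alpha, mu and theta classes are abundant in its hepatocytes. The 35 genes described here were chosen by name: 21 transferases (4 alpha, 6 mu, 2 pi, 3 theta, 3 of the kappa, omega and zeta classes, and 3 microsomal), 4 genes of glutathione synthesis and recycling, and 10 other redox enzymes. All 35 were found among the 54163 genes listed for liver at 40 d.

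The mice were male Lepob/Lepob C57BL/6J, which lack leptin. From 4 weeks of age 30 of them ate an AMLN diet (40% of calories from fat, 20% from fructose, 2% cholesterol by weight) for 20 weeks as a model of fatty liver disease with inflammation, and they stayed on it during treatment. The combination group received daily intraperitoneal acetylsalicylate (aspirin) at 3.0 mg/kg/day with trimetazidine, an inhibitor of fatty acid oxidation, at 5.0 mg/kg/day, and the vehicle group received solvent. RNA-seq covered 6 combination and 6 vehicle libraries of liver and of skeletal muscle at 40 d, under the same mouse numbers in both tissues though no label says that a number is 1 animal, and 1 library of each tissue and group at 24 h. Every group therefore shared the leptin deficiency and the diet, and no lean or untreated mice are compared here. The leading digit of a mouse number (2, 3 or 6 in vehicle, 4 or 5 in combination) was never shared between the groups, so whatever it marks cannot be told apart from treatment.

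Libraries held 16771848 to 18902143 reads on genes in liver at 40 d, 16102181 to 19920148 in muscle at 40 d and 16060699 to 17412261 at 24 h. The tissue labels matched their markers. The sum of 8 hepatocyte markers was 20618 to 36057 FPKM in the 12 livers, and skeletal muscle markers summed to at most 4.64 FPKM there. FPKM are fragments per kilobase of exon, divided by a factor of each library. In the 12 muscles at 40 d the skeletal muscle sum was 33364 to 63289 FPKM and the hepatocyte sum 1.66 to 139.5 FPKM, the highest in vehicle mouse 3_2. Neutrophil markers summed to 82.7 to 132.3 FPKM in vehicle livers and 97.5 to 1557 in combination livers, with mice 4_5 at 1557, 5_5 at 1501 and 5_3 at 867.2. Of the 8 neutrophil markers 5 were tested, 1 passed and all 5 had higher means, with a median log2 difference of 2.19. A marker could enter the test through the combination livers alone. The sum can rest on 1 marker: in liver at 24 h, Lcn2 read 84.2 of 113.8 FPKM in vehicle and 187 of 225 in combination. In bulk tissue, fewer cells of a type and less RNA per cell cannot be told apart.

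Several of the transferase genes lie in tandem clusters (GRCm38). The 6 mu genes sit on chromosome 3 between 107926334 and 108044894, in the order Gstm7, Gstm6, Gstm3, Gstm2, Gstm1, Gstm4. Gsta4, Gsta1 and Gsta2 lie on chromosome 9 between 78182774 and 78355788, Gstt3, Gstt1 and Gstt2 on chromosome 10 between 75774115 and 75837424, and Gstp1 and Gstp2 on chromosome 19 between 4035407 and 4042236. Recent duplication makes some of these transcripts alike, so reads could be split between copies: 90.5% of the 50-base stretches of Gsta1 transcripts also occur in another gene (75.7% in Gm3776), against 49.8% for Gsta2, 54.3% for Gstp2, 28.8% for Gstm3 and 18.9% for Gstm1. Values of these genes are therefore uncertain as single-gene values. Exons of Gstt3 overlap a same-strand gene over 13.6% of their length, and those of Gss and Gstz1 overlap opposite-strand genes over 15.4% and 12.2%, which unstranded counting cannot separate.

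The antioxidant response element core, searched as TGACNNNGC on both strands from 250 bases before to 50 after each start site (RefSeq, GRCm38.p6), was present in 8 of 30 members with a promoter entry. That is 26.7% of these members, against 13.99% of all genes in the table. In promoters of the same length, it was in 18.6% of the 43 member promoters and 12.39% of all 32851. The 8 were Gsta3, Gstm7, Mgst1, Gclm, Txnrd1, Srxn1, Prdx1 and Sod1. Windows of 5 of them are shown because they place the core within the printed promoter of 3 transferases and 2 other NRF2 targets, read 5′ to 3′ on the gene's strand, with the 9 bases of the match in capitals. The match in Gsta3 and Gstm7 is in the forward orientation and that in the other three is reversed.
Gsta3 (chr1:21240439-21240497, plus strand): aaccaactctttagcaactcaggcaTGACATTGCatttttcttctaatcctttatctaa
Gstm7 (chr3:107931710-107931768, minus strand): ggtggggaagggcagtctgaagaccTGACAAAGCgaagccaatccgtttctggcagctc
Mgst1 (chr6:138140446-138140504, plus strand): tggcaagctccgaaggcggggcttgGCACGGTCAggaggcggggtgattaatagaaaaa
Gclm (chr3:122245398-122245456, plus strand): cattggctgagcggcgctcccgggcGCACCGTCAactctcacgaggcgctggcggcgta
Prdx1 (chr4:116685441-116685499, plus strand): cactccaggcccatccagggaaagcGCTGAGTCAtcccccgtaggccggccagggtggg

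Gsta1 and Gsta2, which had the lowest mean differences of the alpha class in liver at 40 d (below), have similar upstream sequence. The 250 bases before the RefSeq start sites were identical at 190 of 266 aligned columns (71.4%), with 44 mismatches and 32 gap columns. Neither stretch holds the searched core, so both are printed without capitals. The Gsta2 stretch lies inside the gene's span as the files give it, which begins further upstream.
Gsta1 (chr9:78230419-78230668, plus strand): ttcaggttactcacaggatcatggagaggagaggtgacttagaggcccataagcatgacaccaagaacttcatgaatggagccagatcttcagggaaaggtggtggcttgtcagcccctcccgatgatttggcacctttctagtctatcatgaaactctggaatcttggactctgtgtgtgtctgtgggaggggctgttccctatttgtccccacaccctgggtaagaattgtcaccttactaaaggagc
Gsta2 (chr9:78347146-78347395, minus strand): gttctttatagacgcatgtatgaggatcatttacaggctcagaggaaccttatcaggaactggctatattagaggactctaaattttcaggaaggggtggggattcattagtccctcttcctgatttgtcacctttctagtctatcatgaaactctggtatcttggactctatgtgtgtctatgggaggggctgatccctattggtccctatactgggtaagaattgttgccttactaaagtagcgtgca

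The FPKM scale is per length, so levels of different genes can be set beside each other within vehicle liver, given the deposited gene lengths. For Sod1 this length was 646 bases, against 3970 in GENCODE M21, and for Sod2 3824 against 10008. The places of these genes in the order depend on it. Gstm1 was highest at 2703 ± 432 FPKM (SD, n = 6), above the whole range of the next, Mgst1, at 1793 ± 118. Gpx1 (1598 ± 166) did not differ from Mgst1 beyond the spread, and Sod1 (1141 ± 151) and Cat (923 ± 82.8) overlapped each other. Gstm3 followed at 735 ± 170, Gpx4 at 471 ± 40.4, Prdx1 at 415 ± 49.7 and Gsta3 at 375 ± 49.9. Between Gstz1 (137 ± 13.0) and Gstt2 (17.7 ± 2.25) every neighbour in the order overlapped the next. Gstp2 (0.277 ± 0.237) and Mgst2 (0.0828 ± 0.0563) were close to the detection limit and were not tested.

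In vehicle muscle the order was different, with Gpx4 (204.5 ± 21.0 FPKM), Sod1 (204.5 ± 24.8), Mgst3 (171 ± 34.6) and Gstm1 (135 ± 13.4) at the top. The place of Sod1 again depends on its deposited length. Mgst3, a microsomal enzyme, ranked next after Gpx4 and Sod1 in muscle, whereas in liver 15 members stood above it. Gsta1 (0.0267 ± 0.0653), Gsta2 (0.0420 ± 0.0415) and Gstm3 (0.00617 ± 0.0151) were at or near 0 in muscle. Liver and muscle were normalized separately, so levels are ordered within a tissue and not compared across them.

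The comparison of combination with vehicle liver at 40 d asks which of these genes differ after continued treatment. Mean levels of 16 of the 19 tested transferases were lower in combination livers (51.0% of all genes tested were), with Gsta1, Gstm3 and Gsta2 furthest down, while the means of the 4 glutathione synthesis genes differed by −0.10 to 0.09 (log2). None of the 33 tested members passed limma's test after Benjamini-Hochberg adjustment over 10995 genes, of which 28 (0.255%) passed, and none passed with limma voom on recovered reads either. At an unadjusted p under 0.05 there were 8 members, all with lower means, by either fit; this held for 13.2% of all genes, and for 7.35% with a lower mean. The median log2 difference was −0.17 over the 33 members, −0.42 over the 19 transferases and −0.03 over the 14 others, beside −0.00334 over all genes tested. Log2 differences are of log2(FPKM + 1), combination minus vehicle, and understate the change of low genes.

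The lowest transferase levels were in 2 of the 6 combination mice. Averaged over the 19 tested transferases, mouse 5_5 stood at −1.501 and mouse 5_3 at −0.66 from the vehicle mean (log2), and the other 4 combination mice at −0.26 to 0.04, within or next to the vehicle range of −0.25 to 0.25. In mouse 5_5, 18 of the 19 transferases were below every vehicle liver, and in mouse 5_3 it was 13, against 24.5% and 22.6% of all genes in those libraries. Fewer were below in the other combination livers: 8 in mouse 4_5 (24.3% of all genes), 8 in mouse 5_1 (16.3%), 4 in mouse 5_2 (17.7%) and 3 in mouse 5_4 (12.5%). In mouse 5_3, 5 transferases were instead above every vehicle liver, and in mouse 5_5 none was, beside 26.6% and 19.8% of all genes. Over the 14 other members mouse 5_5 averaged −0.22 and mouse 5_3 0.01. Without both mice, an alternative chosen after seeing the data, the alpha median went from −0.79 to −0.19, the mu median from −0.40 to −0.08 and the theta median from −0.53 to −0.19.

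Marker sums and mitochondrial shares differed in these mice as well. Mouse 5_5 had the lowest hepatocyte sum of the 12 livers (20618 FPKM, vehicle 28440 to 33990), the lowest periportal sum (891.1, vehicle 1637 to 2285) and the highest cholangiocyte sum (749.8, vehicle 126 to 308.6). Mice 4_5 (26702) and 5_1 (27876), with transferase averages of −0.21 and −0.26, were also below the vehicle range of the hepatocyte sum. In mouse 5_3 the hepatocyte sum (29045) and the cholangiocyte sum (154) were within the vehicle range, and the pericentral sum was the highest at 4227 FPKM (vehicle 2404 to 3151). A sum can follow its most abundant marker, so averages over the tested markers (log2 from the vehicle mean) are given too. By these the cholangiocyte list was highest in mouse 5_2 (1.194) and the pericentral list in mouse 5_4 (0.5062). The hepatocyte list was lowest in mouse 5_5 at −0.1443 (vehicle −0.1282 to 0.08826). The periportal list was also lowest there, at −0.8284 (vehicle −0.2568 to 0.273). No cholangiocyte, neutrophil or hepatocyte marker was at 0 in all livers of a group. Reads on mitochondrial genes were 3.73% of the library in mouse 5_3 and 3.74% in mouse 5_5, the lowest of the 12 livers, against 4.13% to 4.41% in the other combination livers and 4.37% to 6.54% in vehicle. Mouse 5_3 also had the fewest reads. The part of these markers, shares and depths in the lower transferase levels was not tested.

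**Figure D1:**
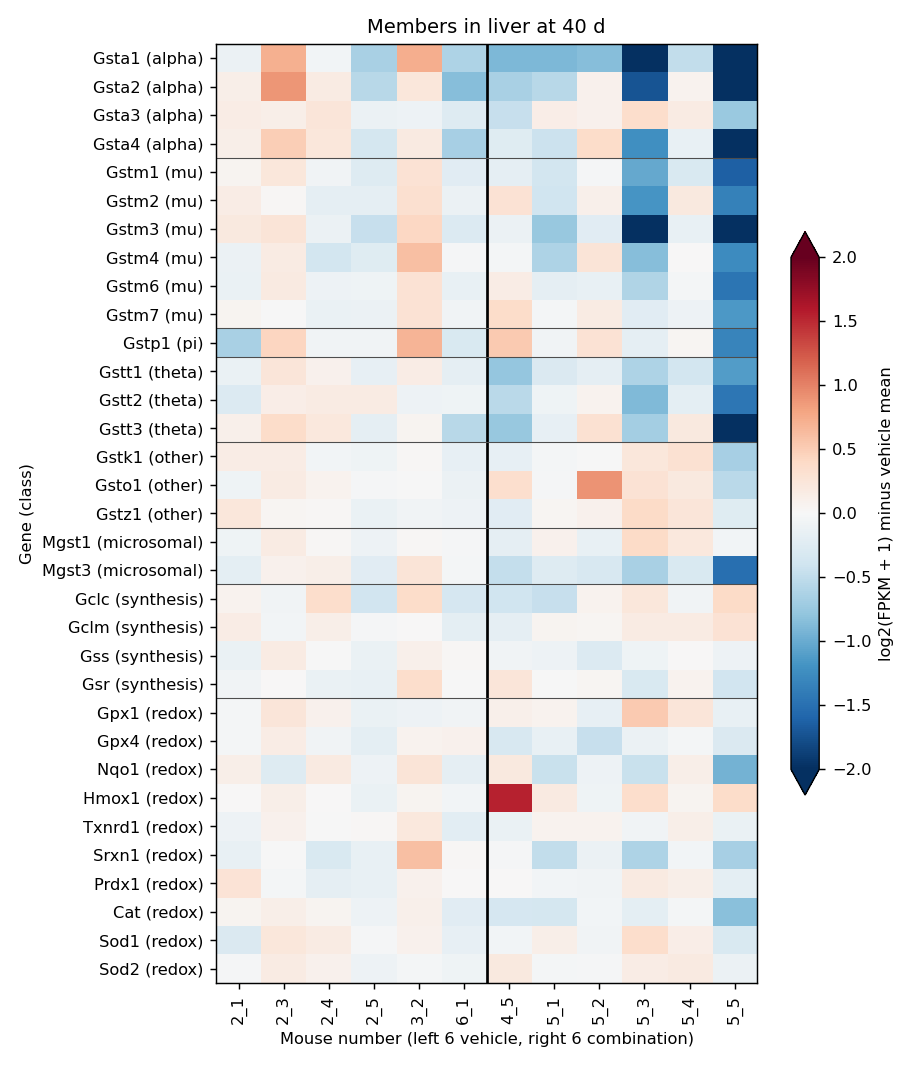
Difference of each tested member from its vehicle mean in liver at 40 d, as log2(FPKM + 1), for 6 vehicle mice (left of the line) and 6 combination mice (right); colours end at 2 either way. The 2 columns with the deepest blue among transferases are mice 5_3 and 5_5, and the rows of Gclc and Gclm are not blue in either.

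Alpha class transferases detoxify lipid peroxidation products and bind bile pigments. Gsta1 (chromosome 9, 78230656 to 78242684) read 26.6, 26.5, 27.4, 9.05, 35.4 and 3.13 FPKM in combination mice 4_5 and 5_1 to 5_5, and from 31.6 to 83.8 with a median of 47.5 in vehicle. Of the 6 combination livers, 5 were below the lowest vehicle liver and 1 was inside the vehicle range. The log2 difference was −1.52 (SE 0.49, limma adjusted p = 0.207), and −1.10 without mouse 5_5 or −0.78 without 5_3 and 5_5. Gm3776, the gene that shares most of its sequence, stood at 15.5 ± 6.22 FPKM in vehicle and 6.28 ± 3.60 in combination.

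Gsta2 (chromosome 9, 78331018 to 78355788) ranged from 2.82 to 30.4 FPKM in combination (median 18.5) and from 15.3 to 53.7 in vehicle (median 31.6), and the groups overlapped. Its log2 difference of −0.95 (SE 0.48, limma adjusted p = 0.413) was −0.26 without mice 5_3 and 5_5. Gsta4, which prefers the lipid aldehyde 4-hydroxynonenal, ranged from 16.3 to 96.1 FPKM (median 59.1) against 47.0 to 105 in vehicle (median 82.6). Its log2 difference of −0.64 (SE 0.35, limma adjusted p = 0.467) became −0.12 without both mice. Gsta3, the most abundant of the class, stood at 365 ± 97.0 against 375 ± 49.9 FPKM and differed by less than its spread.

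The mu class is the most abundant in these livers and conjugates a wide range of electrophiles. Gstm3 (chromosome 3, 107963696 to 107969283) read 659, 426, 617, 173, 652 and 75.2 FPKM in combination mice 4_5 and 5_1 to 5_5, and from 522 to 960 in vehicle with a median of 740. Mice 5_3 and 5_5 stood far below the vehicle range, mouse 5_1 nearer but also below it, and the other 3 inside. Its log2 difference was −1.09 (SE 0.48, limma adjusted p = 0.352), and −0.31 without 5_3 and 5_5. Gstm1 (chromosome 3, 108012255 to 108017973) ranged from 865 to 2639 FPKM (median 2122) against 2226 to 3268 in vehicle (median 2662), with 4 combination livers below every vehicle liver. Its log2 difference was −0.59 (SE 0.25, limma adjusted p = 0.335) and −0.22 without both mice.

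The other 4 mu genes, Gstm2, Gstm4, Gstm6 and Gstm7, had log2 differences of −0.17 to −0.42 with limma adjusted p of 0.495 to 0.759. In mouse 5_5 all 6 mu genes were the lowest of the 12 livers, with Gstm6 at 19.3 FPKM against at least 49.96 in vehicle and Gstm7 at 14.7 against at least 30.9. Of the pi class, Gstp1 ranged from 8.97 to 35.1 FPKM in combination and 14.98 to 38.8 in vehicle, a log2 difference of −0.12 (SE 0.29) that was 0.12 without mouse 5_5.

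Theta class enzymes act on small halogenated molecules and sulfate esters. Gstt1 (chromosome 10, 75783813 to 75798584) had the smallest p of the members in liver. It read 110, 155, 167, 122, 145 and 86.0 FPKM in combination mice 4_5 and 5_1 to 5_5, and 167 to 222 in vehicle with a median of 186. In this gene the lower level was not limited to mice 5_3 and 5_5: 5 of 6 combination livers were below the lowest vehicle liver and the sixth was at its edge. The log2 difference was −0.56 (SE 0.15, limma adjusted p = 0.160), and −0.40 without both mice. Gstt2 stood at 12.8 ± 4.80 against 17.7 ± 2.25 FPKM (log2 difference −0.51, limma adjusted p = 0.336) and Gstt3 at 8.09 ± 4.34 against 10.8 ± 2.47 (−0.53, adjusted p = 0.531). Without mouse 5_5 these 2 differences were −0.33 and −0.22.

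The microsomal enzymes sit in membranes and also reduce lipid hydroperoxides. Mgst3 (chromosome 1, 167371966 to 167393841) was the only member whose groups did not overlap in liver, which held for 0.728% of all genes in the lower direction. It read 49.4, 57.9, 55.5, 44.1, 56.0 and 23.9 FPKM in combination mice 4_5 and 5_1 to 5_5, and 59.2 to 83.2 in vehicle with a median of 70.5. The log2 difference was −0.59 (SE 0.19, limma adjusted p = 0.207), and −0.34 without mice 5_3 and 5_5. Mgst1, its far more abundant relative, stood at 1870 ± 290 against 1793 ± 118 FPKM, a log2 difference of 0.05 (SE 0.12). Gstk1 (mitochondrial and peroxisomal), Gsto1 (a dehydroascorbate and arsenic reductase) and Gstz1 (an enzyme of tyrosine breakdown) had log2 differences of −0.05, 0.19 and 0.05, and Gsto1 was highest in mouse 5_2 at 74.7 FPKM.

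**Figure D2:**
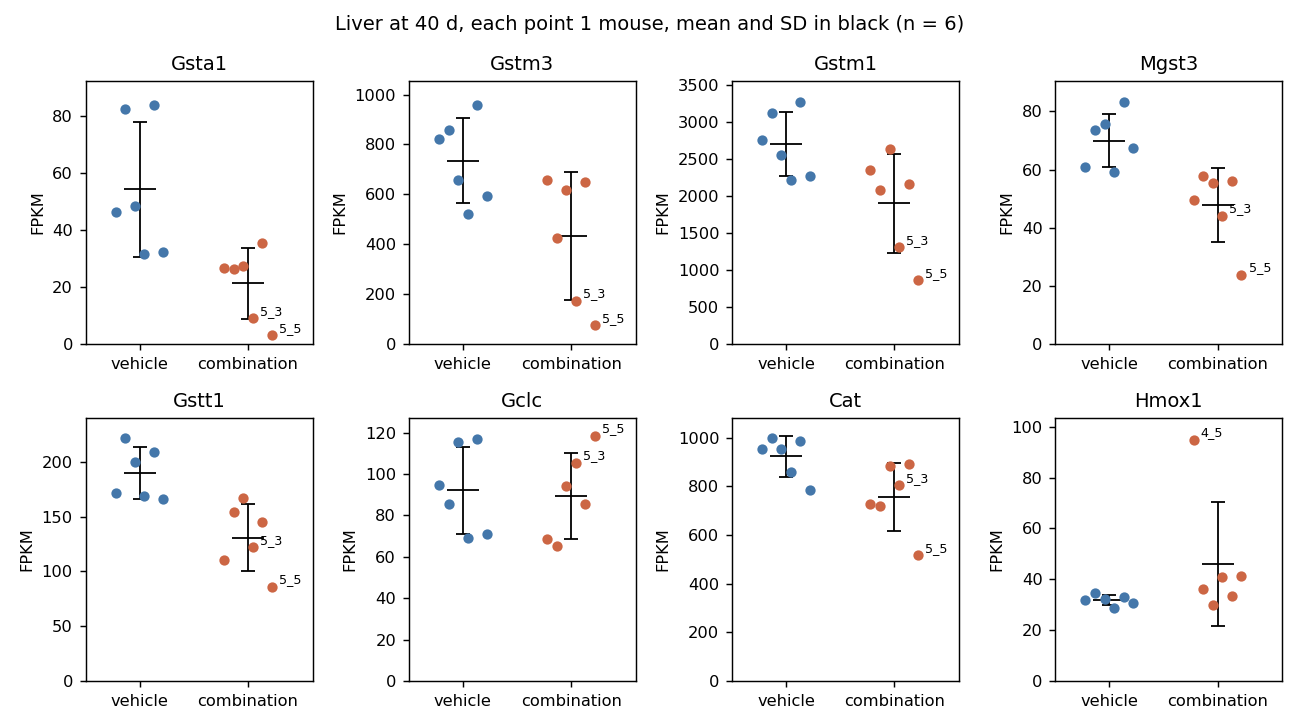
FPKM of 8 members in each liver at 40 d (points are mice, black lines mean and SD, n = 6 a group, axes from 0). Mgst3 is the one whose groups do not overlap, and mice 5_3 and 5_5 are low for Gsta1, Gstm3 and Gstm1 and not for Gclc. For Hmox1, mouse 4_5 alone is far above the other livers.

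Among the genes of glutathione synthesis and recycling, Gclc and Gclm were not low in mice 5_3 and 5_5, while Gsr was. Gclc, the catalytic subunit of the rate-limiting ligase, read 68.4, 65.4, 94.3, 105, 85.7 and 119 FPKM in combination mice 4_5 and 5_1 to 5_5 and 69.0 to 117 in vehicle (median 90.3). Gclm, its modifier subunit, read 40.4 to 56.2 FPKM (median 49.7) against 39.9 to 51.1 (median 45.6). Both were highest of the 12 livers in mouse 5_5, the mouse with the lowest transferases. Gsr, which recycles oxidized glutathione, read 45.9, 38.6, 39.9, 31.1, 40.6 and 29.5 FPKM in the same order and 34.9 to 49.7 in vehicle (median 37.7), so that mice 5_3 and 5_5 alone were below every vehicle liver. Log2 differences of Gclc, Gclm, Gss (glutathione synthetase) and Gsr (glutathione reductase) were −0.04 (SE 0.18), 0.09 (SE 0.09), −0.10 (SE 0.07) and −0.06 (SE 0.12).

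Of the other redox enzymes, Gpx4, which reduces lipid hydroperoxides in membranes, was 342 to 459 FPKM in combination (median 403) and 409 to 520 in vehicle (median 476). Its log2 difference was −0.23 (SE 0.10, limma adjusted p = 0.340) and −0.24 without mice 5_3 and 5_5. Cat, the peroxisomal catalase, was 516 to 891 FPKM (median 765) against 787 to 998 (median 953), a log2 difference of −0.30 (SE 0.13, limma adjusted p = 0.355) that was −0.20 without mouse 5_5. For both genes 3 combination livers were below every vehicle liver. Gpx4 shares 34.7% of its 50-base stretches with other genes, and the pseudogene Gpx4-ps2 stood at 194 ± 17.2 FPKM in vehicle and 176 ± 20.2 in combination.

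The classical inducible NRF2 targets did not move together. Nqo1, a quinone reductase, was 9.67 to 22.7 FPKM in combination and 16.3 to 23.7 in vehicle (log2 difference −0.27, limma adjusted p = 0.538, or −0.06 without mice 5_3 and 5_5). Srxn1, which repairs overoxidized peroxiredoxins, was lower on average by log2 −0.32 (limma adjusted p = 0.410), with vehicle mouse 3_2 highest at 70.8 FPKM and a difference of −0.205 without it. Txnrd1, the cytosolic thioredoxin reductase, and Prdx1 had log2 differences of −0.01 (SE 0.08) and −0.00188 (SE 0.10). Gpx1, Sod1 and Sod2 stood at 0.10, 0.03 and 0.06, each below its SE.

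Hmox1, which degrades heme and is also abundant in macrophages, read 94.9, 36.1, 29.9, 40.9, 33.3 and 41.2 FPKM in combination mice 4_5 and 5_1 to 5_5, and 28.8 to 34.8 in vehicle. Mouse 4_5 alone was far above the others, and 3 more were just above the vehicle range. The log2 difference was 0.40 (SE 0.22, limma adjusted p = 0.452) and 0.17 without mouse 4_5. The same liver had the highest sum of 8 Kupffer cell markers, 2006 FPKM against 606.5 to 669.5 in vehicle, and the highest neutrophil sum, and the part of these cells in its Hmox1 level was not tested.

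Members with and without the response element core are set side by side as a description. Of the 8 members at an unadjusted p under 0.05, 7 had a promoter entry and 0 held the core, beside 13.99% of all genes with an entry. They were picked by p-values of these same data and none passed adjustment, so the split is not a test. Of the 25 other tested members, 21 had an entry and 8 held the core. The liver differences of those 8 ran from −0.32 for Srxn1 to 0.09 for Gclm. A match is letters in a window and not a measured binding site, and no match bears only on this window.

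Genes that regulate NRF2 or are known as further targets were read from lists of the same pathway. Over all genes tested in liver, 13.2% had an unadjusted p under 0.05, and 7.35% with a lower mean. Of 11 tested NRF2 regulators none passed in liver, 3 had an unadjusted p under 0.05 and all 3 were lower: Nfe2l2 itself at 28.6 ± 3.08 against 34.2 ± 4.66 FPKM (log2 difference −0.25, limma adjusted p = 0.296), and the small MAF partners Maff (−0.52, adjusted p = 0.207) and Mafk (−0.27, adjusted p = 0.352). Of 23 tested other NRF2 targets none passed, and at an unadjusted p under 0.05 there were 8 with lower means and 1, Ugt2b35 (0.23), with a higher mean. The 3 with the smallest p were Aox1, an aldehyde oxidase (12.6 ± 1.85 to 8.49 ± 2.20 FPKM, log2 difference −0.54, adjusted p = 0.145), Ephx1, the microsomal epoxide hydrolase (336 ± 35.2 to 241 ± 53.7, −0.50, adjusted p = 0.175), and Entpd5 (−0.31, adjusted p = 0.199). The median of this list was −0.22, and its mean in mouse 5_5 was −0.66.

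Of 20 tested other glutathione genes none passed. Chac1, which breaks glutathione down, ranged from 1.30 to 11.7 FPKM in combination and 1.32 to 2.59 in vehicle (log2 difference 1.019, limma adjusted p = 0.182). Leaving out combination mouse 5_2 made Chac1 pass (log2 difference 1.28, adjusted p = 0.0173), and the difference was 0.79 without mouse 5_3 and 0.64 without mice 5_3 and 5_5 (adjusted p = 0.505). Gpx3, the secreted peroxidase, stood at 51.1 ± 30.9 against 25.6 ± 5.47 FPKM (log2 difference 0.79, adjusted p = 0.325, and 0.31 without mice 5_3 and 5_5). Esd, a formylglutathione hydrolase, stood at −0.26 (adjusted p = 0.352). Of 21 tested other redox enzymes none passed and only Qsox1 had an unadjusted p under 0.05 (0.40, adjusted p = 0.351), beside 13.2% of all genes.

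Several transferases also respond to the xenobiotic receptors CAR and PXR, so their target genes were listed too. Of 18 tested genes 1 passed: Cyp2c55, a CAR and PXR target, fell from 4.83 ± 0.926 to 2.34 ± 0.789 FPKM (log2 difference −0.83, SE 0.15, limma adjusted p = 0.0441). The call held in 1 of the 12 fits that each left out 1 mouse (adjusted p = 0.0117 to 0.112) and was lost with voom (adjusted p = 0.0528), so it sits at the threshold. Cyp2b10, the classical CAR target, stood at 0.496 ± 0.353 against 2.23 ± 1.64 FPKM (log2 difference −1.002, limma adjusted p = 0.165). A gene this low in combination could enter the test through the vehicle livers alone. With other pseudocounts, filters, scalings or voom the Cyp2b10 difference ran from −2.243 to −0.3694. Abcb1a stood at −0.40 (limma adjusted p = 0.210). The list was mixed, with 11 lower and 7 higher means, a median of −0.14 and a highest difference of 0.85. At an unadjusted p under 0.05, 4 were lower and 2 higher, beside 13.2% of all genes either way and 7.35% lower. Averaged over the 18 genes, mice 5_5 and 4_5 stood at −0.67 and −0.51, and mouse 5_3, whose transferases were low, at 0.14.

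In muscle at 40 d the same treatment was compared in 29 members, since Gsta1, Gsta2, Gstm3, Gstm6, Gstp2 and Mgst2 were too low to test. None passed limma's test (0 of 11708 genes passed, 0%), none passed with voom, and none had an unadjusted p under 0.05 by either fit, which 3.85% of all genes had. Log2 differences ran from −0.21 for Gsta4 to 0.29 for Gpx1, with a median of 0.06 against −0.00359 over all genes. The smallest p belonged to Cat, at 58.2 to 88.1 FPKM in combination (median 71.0) and 75.4 to 90.3 in vehicle (median 79.7). Its log2 difference was −0.20 (SE 0.11, limma adjusted p = 0.999), and 3 combination muscles were below every vehicle muscle.

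The muscle numbered 5_5 stood apart from the other muscles, with higher levels of most members. In it 18 of the 29 members were above every vehicle muscle, where 26.8% of all genes were. In the other 5 combination muscles it was 0 to 5, where 8.09% to 13.6% of all genes were. Over all genes the muscle numbered 5_5 differed both ways: 26.7% were below every vehicle muscle, as were 2 of the 29 members. In the other 5 combination muscles 9.77% to 15.6% of all genes were below. The muscle numbered 5_2 stood apart the other way, with 11 of the 29 members and 6 of the 15 transferases below every vehicle muscle, where 15.6% of all genes were. Sod1, the cytosolic superoxide dismutase, read 459 FPKM in the muscle numbered 5_5 and 162 to 231 in the other combination muscles. Gpx1 read 224 against 84.9 to 111, Gpx4 377 against 162 to 197, and Prdx1 108 against 53.5 to 59.1. Gsr (23.8 FPKM), Srxn1 (26.0) and Gclm (8.42) were also highest in the muscle numbered 5_5, while Gclc, at 2.69 FPKM, was lowest of the 12.

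Without mouse 5_5 the muscle median of all members was −0.04 and that of the redox enzymes −0.09. Gpx1 then stood at 0.09 in place of 0.29, Gsr at 0.09 in place of 0.26, Sod1 at −0.10 in place of 0.11 and Gpx4 at −0.17 in place of 0.01. Beside these values, the sum of 6 adipocyte markers was highest in this muscle (1574 FPKM) and lowest in combination mouse 5_2 (168.1), with 341.6 to 1387 in vehicle. Mouse 5_2 was lowest of the 12 muscles for Mgst1 (22.3 FPKM), Gstz1 (9.46) and Gsta3 (0.728). Mitochondrial genes took 5.1% of the reads in the muscle numbered 5_5 and at least 7.15% in the other 11. The part of fat cells and of this share in these values was not tested.

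**Figure D3:**
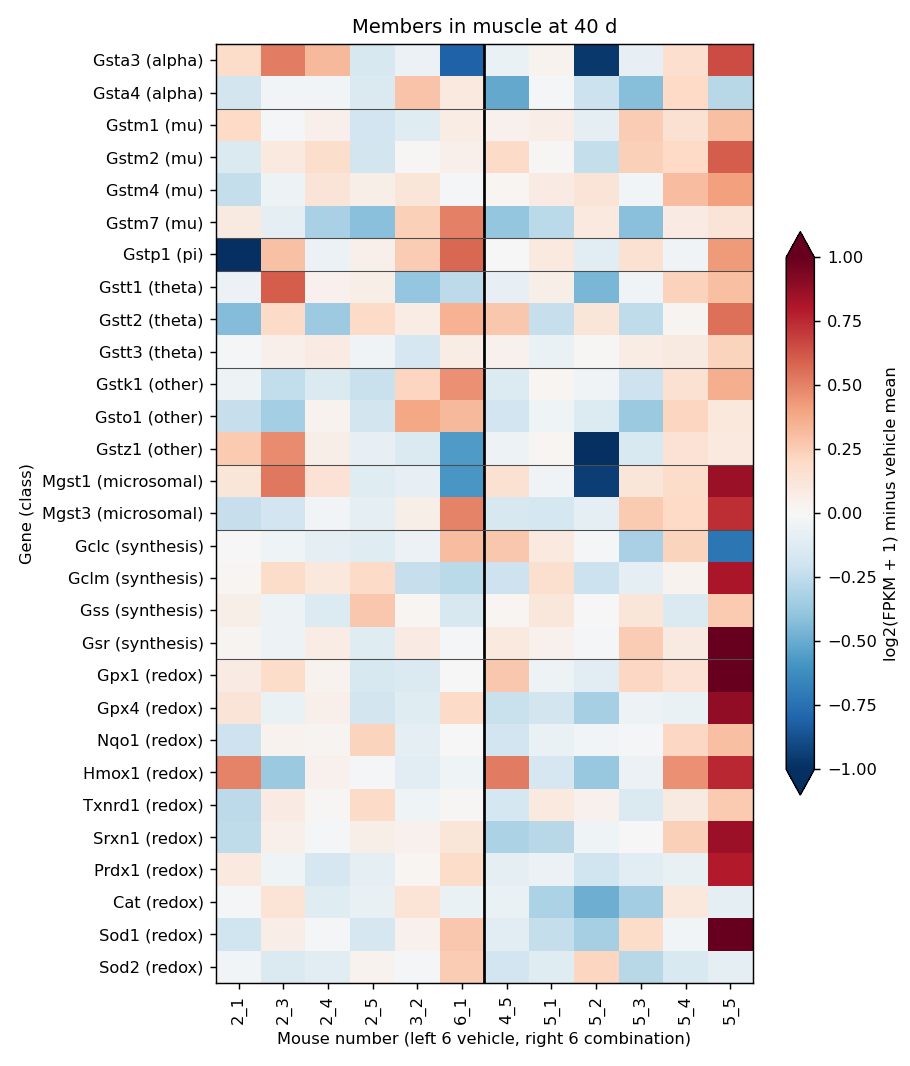
Difference of each tested member from its vehicle mean in muscle at 40 d, as log2(FPKM + 1), for 6 vehicle mice (left of the line) and 6 combination mice (right); colours end at 1 either way. Mouse 5_5 is high for most redox and synthesis genes and low for Gclc, and mouse 5_2 is low for Gsta3, Gstz1 and Mgst1.

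Mean differences of the 15 tested transferases in muscle ran from −0.21 to 0.17 (log2), while single muscles lay further out. In the muscle numbered 5_5, 8 transferases were above and 1 below every vehicle muscle (26.8% and 26.7% of all genes). In that numbered 5_2, 0 were above and 6 below (13.6% and 15.6% of all genes). Gstm1 was 125 to 166 FPKM in combination (median 145) and 117 to 155 in vehicle (median 136), a log2 difference of 0.12 (SE 0.10). Gstm2 stood at 0.17 (SE 0.12), Gstm4 at 0.15 (SE 0.09), Mgst3 at 0.13 (SE 0.17), Mgst1 at 0.06 (SE 0.25) and Gstt1 at 0.00163 (SE 0.16). Without mouse 5_5, Gstm2 stood at 0.08, Mgst3 at 0.0071 and Mgst1 at −0.105. Gsta4 stood at 8.91 ± 1.86 against 10.4 ± 1.40 FPKM, with 4 combination muscles below every vehicle muscle. Gstp1 stood at 0.09 (SE 0.22), or −0.13 without vehicle mouse 2_1, which was lowest at 1.015 FPKM, and Gstp2, its near-identical partner, at 0.567 ± 0.263 against 0.994 ± 0.782 FPKM. Of the other pathway lists none passed in muscle. The smallest p in each belonged to Me1 (malic enzyme, −0.34) among NRF2 targets, Oplah (5-oxoprolinase, −0.33) among glutathione genes, Msra (a methionine sulfoxide reductase, −0.25) among redox enzymes and Alas1 (−0.45) among CAR and PXR genes, each with a limma adjusted p of 0.999.

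Whether the effect differed between tissues was tested as a difference of effects, liver minus muscle, in 1 limma fit over the 24 libraries at 40 d. None of the 29 members tested passed, beside 1 of 9436 genes (0.0106%), and none passed with voom. At an unadjusted p under 0.05 there were 5 members, all with the lower value in liver, beside 5.21% of all genes and 2.48% in that direction. With voom there were 3. They were Mgst3 (−0.72, SE 0.26, adjusted p = 0.733), Gstm1 (−0.71, SE 0.27, adjusted p = 0.784), Gstt1 (−0.56, SE 0.23, adjusted p = 0.902), Gstt2 (−0.59, SE 0.28, adjusted p = 0.955) and Gstm4 (−0.57, SE 0.27, adjusted p = 0.955). Without mice 5_3 and 5_5 these 5 differences were −0.23 to −0.34, and 0 had an unadjusted p under 0.05. The 14 members other than transferases had differences of effects from −0.40 for Srxn1 to 0.21 for Hmox1, with 0 at an unadjusted p under 0.05.

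**Figure D4:**
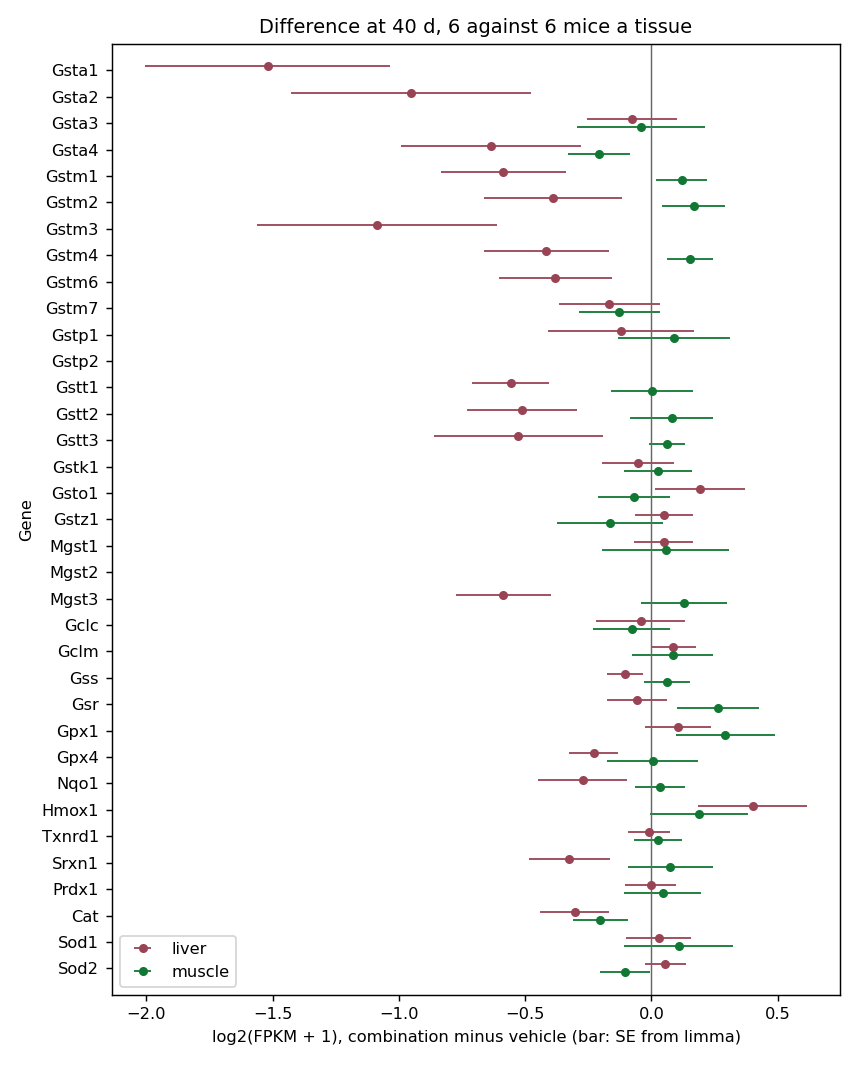
Log2 difference of each tested member at 40 d, combination minus vehicle, in liver and in muscle (points, with SE from limma as bars, 6 against 6 mice a tissue). Liver points lie left of 0 for the alpha, mu and theta classes and Mgst3, the 4 synthesis genes lie near 0 in liver, and muscle points all lie between −0.21 and 0.29.

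At 24 h each tissue had 1 library a group, so values are given with no test and a member with at least 1 FPKM in either library was counted where the ratio of (FPKM + 1) reached 1.5-fold either way. In liver 0 of 33 counted members reached it, beside 6.97% of 12923 genes (3.48% higher and 3.49% lower), or 4.10% of 11804 genes with at least 1 FPKM in both libraries. The nearest were Nqo1, with 19.7 FPKM in vehicle and 14.0 in combination, and Gsta2, with 24.2 and 17.8. Of the other members with low means at 40 d, Gsta4 read 59.8 and 51.5 FPKM in vehicle and combination at 24 h, Gsta1 18.6 and 17.3 FPKM, Gstm3 400.2 and 396, Gstt1 192 and 200, Mgst3 69.2 and 62.8, and Gstm1 1657 and 1823. Of the pathway genes named at 40 d, Chac1 read 4.22 and 16.6 FPKM, Maff 9.01 and 14.2, and Gpx3 96.4 and 69.0. The directions were not all the same in muscle at 24 h. There Chac1 read 62.5 FPKM in vehicle and 30.3 in combination, Maff 7.34 and 15.1, and Gpx3 358.5 and 159.3.

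In muscle at 24 h, 9 of 32 counted members reached 1.5-fold (7 higher and 2 lower), beside 12.9% of 12878 genes (7.52% higher and 5.42% lower). The higher ones in the combination library were Gsta4 (7.97 to 16.2 FPKM), Gstm7 (1.39 to 4.04), Gstz1 (25.8 to 42.9), Mgst1 (67.1 to 105), Mgst2 (0.754 to 2.84), Srxn1 (21.9 to 36.5) and Cat (82.8 to 149). The lower ones were Nqo1 (22.6 to 11.8 FPKM) and Gstm3, with 1.5 FPKM from 31 reads in vehicle and 0.0508 FPKM from 1 read in combination. Mgst2 and Gstm3 entered only through the library in which they were higher. Among the 29 members with at least 1 FPKM in both libraries, an alternative chosen after seeing the data, 7 reached 1.5-fold (6 higher and 1 lower), beside 9.06% of 11586 genes. With a pseudocount of 5 the count was 6. None of these members had a limma adjusted p under 0.999 in muscle at 40 d where it was tested.

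Marker levels differed between the 2 muscle libraries. The adipocyte sum was 1493 FPKM in vehicle and 2954 in combination, and the skeletal muscle sum 43910 in vehicle and 28928 in combination. The hepatocyte sum was 101.5 FPKM in vehicle and 5.45 in combination, and Gstm3, a gene near 0 in every muscle at 40 d, was higher in the same vehicle library. The part of fat, muscle fibre and liver RNA in these ratios was not tested.

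**Figure D5:**
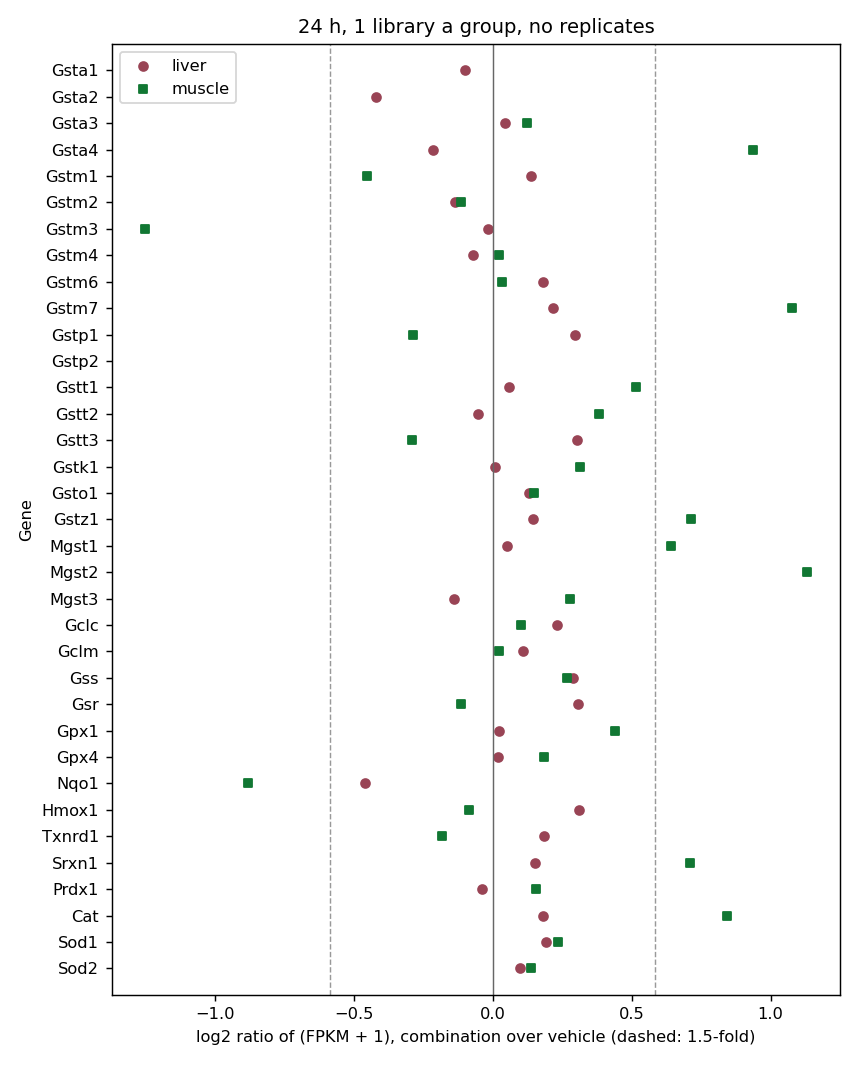
Log2 ratio of (FPKM + 1) at 24 h, combination over vehicle, for each counted member in liver (circles) and muscle (squares), 1 library a group; dashed lines mark 1.5-fold. All liver points lie between the dashed lines, and 9 muscle points lie outside them.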

How the data were processed

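Per the labels' protocols, Trizol RNA went into NEBNext Ultra libraries. The authors deposited 3 tables of FPKM values (liver at 40 d, muscle at 40 d, 24 h), each normalized on its own. The submitters' processing notes list GRCm38 and mm10 as builds. No aligner, counter or strand setting is given in the sources used here. Multiplied by gene length, 100.0% of the deposited FPKM values came out as whole reads (tolerance 0.01), and these reads served for depth and for voom.

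A gene entered the test where 6 or more of a tissue's 12 libraries reached 1 FPKM. Log2(FPKM + 1) values were fitted with limma 3.58.1 in R 4.3.3 (moderated, with trend, two-sided, Benjamini-Hochberg over all genes tested, threshold 0.05), and the fit was tested on simulated data. Deposited lengths equalled GENCODE M21 for 30 of the 35 members, and were shorter for Gstp1, Gstp2, Gsto1, Sod1 and Sod2. Alternatives were other pseudocounts, filters and scalings, voom, the mouse number as a block, and each mouse left out.

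Named with full values were, per tissue, the 2 members of each class with the smallest p, members with a log2 difference of 0.5 or more either way, near-identical partners, members past 1.5-fold at 24 h and, of pathway lists, genes that passed and the 3 with the smallest p. Hmox1, Nqo1 and Srxn1 in liver, Ugt2b35, and the genes high in the muscle of mouse 5_5 were named after their values were seen. The members and lists were chosen with earlier results of these data known. Only the mouse numbers mark libraries of a group as separate animals, so p-values measure the spread between these libraries, which may be partly technical.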

Additional observations from a re-analysis of the deposited data

Results flagged for a closer look

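Values were looked at in 124 sets of 6 libraries, each a tested member in 1 group at 40 d. A highest or lowest library was flagged where Dixon's 95% criterion (its gap to the next, divided by the range) set it apart. For normally distributed values chance gives this in about 1 in 20 sets, or 6.2 here, and 15 were found. The sets share libraries and hold FPKM values, so 15 beside 6.2 does not measure an excess over chance. Of the 15, 7 were in 1 muscle, that of combination mouse 5_5, which was far above the other combination muscles. It read 8.42 FPKM for Gclm (others 3.60 to 4.99), 223.8 for Gpx1 (84.9 to 111), 376.8 for Gpx4 (162 to 197), 23.8 for Gsr (10.3 to 12.6), 108 for Prdx1 (53.5 to 59.1), 459 for Sod1 (162 to 231) and 26.0 for Srxn1 (10.9 to 16.6). Combination mouse 5_2 was lowest in muscle for Gstz1 (9.46 FPKM, others 18.5 to 23.0) and highest for Sod2 (80.6, others 57.0 to 64.8).

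Among vehicle muscles, mouse 6_1 was highest for Gclc (6.54 FPKM, others 4.60 to 5.07) and for Mgst3 (237 FPKM, others 143 to 175), and mouse 2_3 for Gstt1 (20.8 FPKM, others 9.98 to 13.9). In liver, vehicle mouse 3_2 was highest for Gsr (49.7 FPKM, others 34.9 to 39.0) and Srxn1 (70.8, others 37.4 to 47.2), and combination mouse 4_5 was highest for Hmox1 (94.9, others 29.9 to 41.2).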

How the results depend on the processing

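No member passed in any comparison at 40 d under any alternative run. The lowest adjusted p of a member named with full values was 0.0711 in liver and 0.333 for the difference of effects (Gstt1 without combination mouse 5_2), and 0.781 in muscle (Cat without combination mouse 5_5). The count over all genes in liver was 28, and 0 with no filter on low values, 37 on the TPM scale, 0 to 83 with 1 mouse left out and 1 without mice 5_3 and 5_5; in muscle it was 0 and at most 1, and for the difference of effects 1 and 0 to 7. Mouse numbers were not shown to pair liver with muscle in all mice (correlations over 0.1 in 7 of 12 pairs, 7 libraries best with their own number). With the replicate block 0 members passed, 3 in place of 5 had an unadjusted p under 0.05, and 3 genes in all passed.

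With 1 mouse left out, members at an unadjusted p under 0.05 numbered 3 to 11 in liver, 0 to 2 in muscle and 2 to 7 for the difference. The muscle median of all members ranged from −0.041 to 0.093 and was −0.037 without mice 5_3 and 5_5, an alternative added after seeing the data. At 24 h, TPM scaling gave 1 liver member past 1.5-fold. Differences near 0 changed sign with 1 mouse left out: in liver Gstp1 (−0.25 to 0.12), Gstz1 (−0.019 to 0.11) and Mgst1 (−0.017 to 0.094), in muscle Gstp1 (−0.13 to 0.21), Gstt2 (−0.015 to 0.15), Gsta3 (−0.20 to 0.14), Gsto1 (−0.14 to 0.0086), Mgst1 (−0.11 to 0.26), Gstz1 (−0.28 to 0.012), Gpx4 (−0.17 to 0.073) and Sod1 (−0.10 to 0.20). Without mice 5_3 and 5_5, liver Gstp1 was 0.20 and Mgst1 −0.0071, and muscle Gstp1 −0.010, Mgst1 −0.16, Mgst3 −0.057, Gss −0.0040, Gpx4 −0.20 and Sod1 −0.18. The cause was not tested.

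Reads per library limit the low members: at under 1 FPKM a short gene has few reads, so Gstp2 and Mgst2 in liver, and Gsta1, Gsta2, Gstm3, Gstm6, Gstp2 and Mgst2 in muscle, were not tested.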
